A study of Mus musculus with 9 samples.

Results

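The protein-coding genes listed as changed by MGH-CP1 in EHE17 cells are described here. Members are the rows with the biotype protein_coding in the authors' deposited table of MGH-CP1 against vehicle. There were 211 of them among 471 rows, and 720 genes are listed over both tables of the study. EHE17 is a mouse tumour cell line with the labelled cell type endothelial and the genotype TC+/+ Cdkn2a -/-, which all groups share; the labels do not spell out TC. Cells received DMSO (vehicle, n = 3 libraries; the labels give no time for it) or MGH-CP1 at 10 µM for 16 h (n = 3), and a further 3 libraries came from cells given dinaciclib, a cyclin-dependent kinase inhibitor, at 300 nM for 16 h. The replicates are biological triplicates of 1 cell line, per the labels, so the p-values below measure the spread between libraries of this line only.

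MGH-CP1 occupies the lipid pocket of TEAD proteins and blocks their palmitoylation. TEAD proteins are the DNA-binding partners of the coactivators YAP and TAZ, and target genes of the complex encode matrix proteins, growth factors and regulators of cell shape. In endothelial cells YAP and TAZ are known for their part in vessel growth and in the response to flow and matrix stiffness. Epithelioid hemangioendothelioma, the vascular tumour after which lines of this name are called, carries a TAZ fusion protein.

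Depth ranged from 31852117 to 40020833 counts per library for vehicle and from 19934012 to 24310817 for MGH-CP1. Of 12 endothelial marker genes, Vwf was the 1 in the MGH-CP1 table. In the other table the vehicle libraries held 90.3 ± 2.90 FPKM of Kdr, the main VEGF receptor gene, and 32.0 ± 0.609, 17.6 ± 0.728 and 9.11 ± 0.498 FPKM (SD, n = 3) of the endothelial and blood transcription factor genes Fli1, Tal1 and Gata2. Of 9 macrophage markers, Cd68 and Lyz2 were in the MGH-CP1 table, with a summed level of 189 to 213 normalised counts in vehicle and 138 to 154 with MGH-CP1; the sum is mostly Lyz2, which was lower and has 96.0% of its transcript in a near copy, while Cd68 was higher. None of the mural, fibroblast, lymphoid or epithelial markers was listed. The table holds genes that the authors had picked for a change, with an absolute log2 change of at least about 1, so a gene that is not in it is not reported as unchanged.

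Of the 211 coding genes, 102 were higher and 109 lower with MGH-CP1. In all, 187 had enough counts for edgeR's quasi-likelihood test, and each of them passed the Benjamini-Hochberg threshold, 86 higher and 101 lower. The same held for 355 of 355 tested rows of the whole table (100%; 49.3% higher and 50.7% lower), and since the rows had been picked on these libraries, nothing is read from the count. For 209 of the 211 genes the 3 libraries of one group lay entirely above those of the other, against 98.6% of all tested rows; the exceptions were Gstp2 and Oasl2. The median change was 1.32 on the log2 scale among the higher genes and −1.32 among the lower (1.48 and −1.42 over all tested rows), the range ran from −3.49 to 4.18, and 29 genes, 16 higher and 13 lower, changed by a log2 of 2 or more. The smallest change in each direction was that of Tmem245 and Fxyd6, at 1.001 and −1.005.

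Most of these genes were expressed at a low level. Levels between genes are compared in FPKM, which is per length: 143 of the 211 averaged below 1 FPKM over the 6 libraries, 52 lay between 1 and 10, 13 between 10 and 100, and 3 above 100, namely Igfbp5, Odc1 and Gm11808. Igfbp5, Odc1, Lars2 and Rps27a took 59.1% to 66.3% of all counts on the listed coding genes in each library. The listed coding genes took 0.375% ± 0.0278 of all counts in vehicle and 0.379% ± 0.0355 with MGH-CP1 (SD, n = 3), a difference that an exact permutation test did not separate from the spread (two-sided p = 0.9; 3 against 3 cannot go below 0.1). Within that sum the higher rows went from 0.0961% to 0.250% and the lower rows from 0.279% to 0.129%, as the split by direction fixes. In bulk RNA, a change in the number of cells that express a gene and a change in RNA per cell cannot be told apart, and this holds for every gene below.

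**Figure D1:**
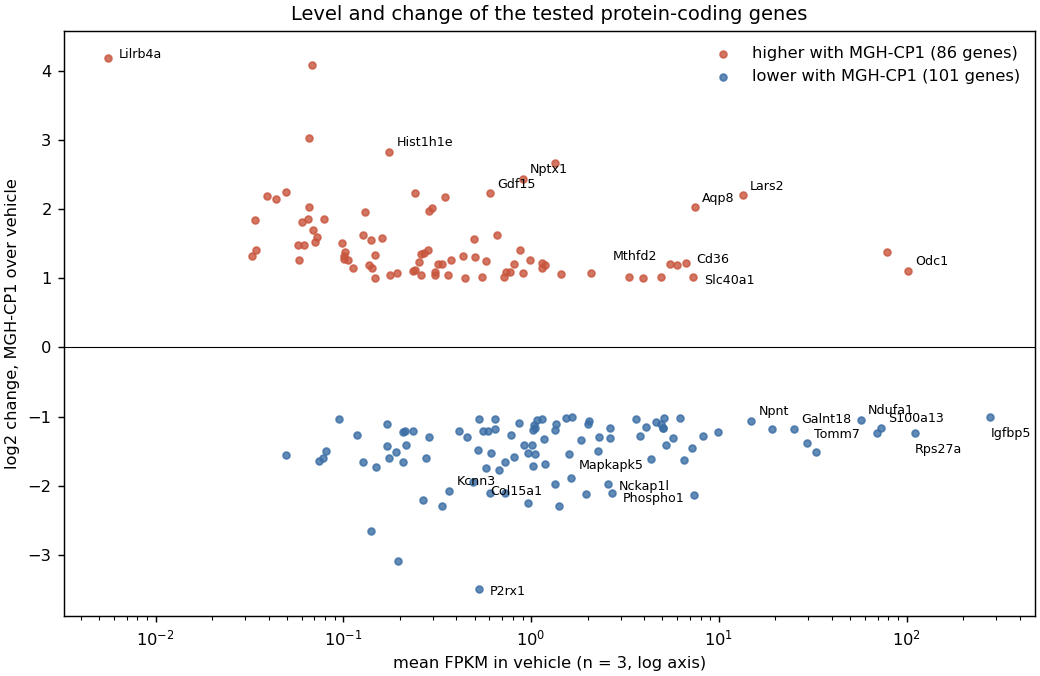
Log2 change with MGH-CP1 against the mean FPKM in vehicle (log axis, n = 3) for the 187 tested coding genes, each point being 1 gene. Changes beyond a log2 of 2 sit mostly at low levels, while Igfbp5 and Odc1, both above 100 FPKM in vehicle, changed by −1.01 and 1.11.

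Triplets of values below are normalised counts (read counts divided by the authors' size factors) in replicates 1, 2 and 3 of a group. Genes outside the naming rule are given as chosen after their values were seen, which also holds for Fxyd6, Angpt1, Col13a1, Lilrb4a, Hist1h3i, Hist1h2af, Cth, Oasl2, Gm4951, Gm21887, Sema3b and Bcl11b. For rises and falls the rule takes called genes with a regular symbol (no clone name or Gm number) and groups that do not overlap. Their mean must be at least 46.8 normalised counts (the median). Among these genes the largest rise was that of Nptx1 (ENSMUSG00000025582, chromosome 11, 119538719 to 119547753), a secreted pentraxin known from synapses. It stood at 113, 149 and 133 in vehicle and 805, 729 and 609.7 with MGH-CP1. Every treated library lay far above every vehicle library, and the log2 change was 2.44 (SE 0.17, adjusted p = 1.85e-06 by edgeR). The predicted gene Gm21887, left out by its symbol, rose more, by 2.66 on the log2 scale, with 100% of its transcript in a near copy. Of the falls the smallest adjusted p was that of Nckap1l (ENSMUSG00000022488, chromosome 15, 103453794 to 103498810), which encodes the blood-cell form of a subunit of the actin-regulating WAVE complex. It went from 461, 421 and 396 to 102, 98.9 and 124, a log2 change of −1.98 (SE 0.15, adjusted p = 4.69e-06 by edgeR). After Nptx1 the rises ran in size order through Gdf15, Lars2, Aqp8, Slco5a1, Clec4g, Slc7a11, Prokr2, Aldh1l2, Il4, Cd36 and Vegfa. The falls reported here ran through Nutf2-ps1, Phospho1, Kcnn3, Nckap1l, Col15a1, Mapkapk5, Fbxl22, Pde1b, Arc, Sncaip and Cd40.

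**Figure D2:**
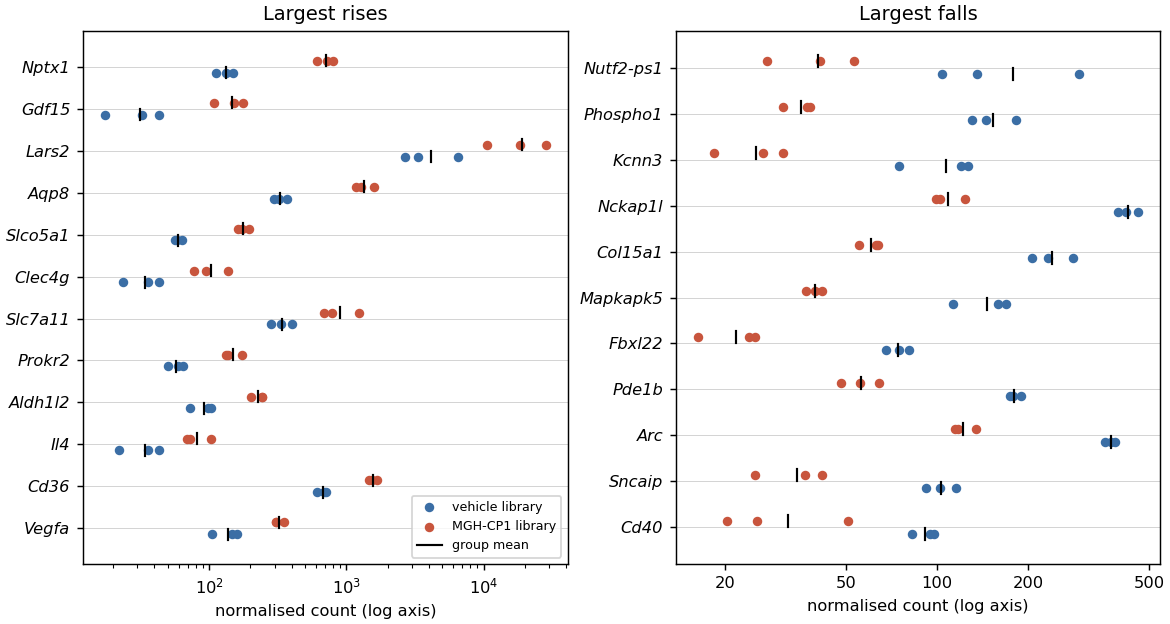
Normalised counts (log axis) of the coding genes with the largest rises (left) and falls (right) reported by that rule, each point being 1 library and each bar a group mean (n = 3). The groups are apart in every gene, as the rule requires; Lars2 ranged from 10624 to 28262 in the treated libraries.

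Secreted and matrix proteins formed the largest class of known function, with 29 tested genes, 12 higher and 17 lower. The most abundant of all 211 was Igfbp5 (ENSMUSG00000026185, chromosome 1, 72857932 to 72874884), which encodes a secreted binding protein of insulin-like growth factors. Its counts were 53732, 44041 and 43524 in vehicle and 25589, 21679 and 23092 with MGH-CP1. Every treated library was below every vehicle library, and the level went from 279.8 ± 33.5 to 139 ± 11.7 FPKM (SD, n = 3; log2 change −1.01, SE 0.23, adjusted p = 0.00173 by edgeR). Igf1, a ligand that such proteins bind, was lower as well, at 631, 535 and 661 against 1483, 1201 and 1184 in vehicle; it is outside the naming rule and was chosen after its values were seen. Npnt, encoding the basement membrane protein nephronectin, an integrin ligand, went from 2375, 2049 and 1879 to 1067, 802 and 1159. Tll1, encoding a tolloid-type metalloprotease that processes matrix and BMP inhibitors, fell from 1178, 1116 and 989 to 449.5, 562 and 452 and was also chosen after its values were seen.

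Of the basement membrane and vessel wall genes, Col15a1, a collagen gene, fell 3.93-fold, from 206, 280.0 and 232 to 63.7, 55.1 and 63.0. Vwf, encoding von Willebrand factor, which tethers platelets, held 63.5, 77.2 and 60.0 in vehicle and 16.2, 31.1 and 14.3 with MGH-CP1. These Vwf counts lie over 16064 bases of exons, so its level per length was low in vehicle as well. Both Col15a1 and Vwf were lower in every treated library. Cx3cl1, encoding the membrane-bound chemokine fractalkine of endothelial cells, fell from 610.4, 600.2 and 525 to 196, 219 and 237. Netrin-1 (Ntn1), a guidance cue, fell from 416, 398 and 380.4 to 148, 103 and 170.0. The transcript of its receptor neogenin (Neo1) went the other way, from 1284, 1145 and 1161 to 2489, 2394 and 2376, with little spread within either group. Ccdc80 and Matn4, encoding matrix proteins, were lower at log2 changes of −1.41 and −1.59.

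Among the secreted factors that were higher, Vegfa, the main endothelial growth factor gene, went from 106, 159 and 148 to 306, 349 and 308, a log2 change of 1.22 (SE 0.17, adjusted p = 1.31e-04 by edgeR). Spp1, encoding the secreted phosphoprotein osteopontin, went from 248, 278 and 307 to 598, 613 and 689. Gdf15, a cytokine of the TGF-beta family known as a stress signal, stood at 32.6, 43.5 and 17.4 against 109, 178 and 151. In each of these genes the 2 groups were apart, with Gdf15 the most variable in vehicle. Fst, encoding the activin inhibitor follistatin, rose from 3.53, 5.75 and 7.68 to 22.0, 33.9 and 22.6, and Ltbp2, encoding a matrix protein of the latent TGF-beta binding family, from 9.70, 16.4 and 13.96 to 24.3, 29.7 and 42.8. Il4, encoding the T helper cytokine interleukin-4, was low in both groups, at 36.2, 22.2 and 43.3 and 69.5, 72.0 and 103. Angpt1, encoding the ligand of the receptor TIE2, fell by 1.65 on the log2 scale, or by 2.37 without MGH-CP1 replicate 2. Col13a1, a transmembrane collagen gene, rose by 1.82, or by 2.46 without vehicle replicate 3.

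Receptors and adhesion molecules comprised 20 tested genes, 13 higher and 7 lower. Cd36, encoding a scavenger receptor that takes up fatty acids and binds thrombospondin, went from 616, 710.2 and 688 to 1470.2, 1677 and 1539, and its level from 6.67 ± 0.503 to 15.5 ± 1.04 FPKM. Prokr2, encoding a prokineticin receptor, held 59.1, 50.1 and 64.2 in vehicle and 138, 175 and 133 with MGH-CP1. Both receptors were higher in all 3 treated libraries. C-type lectin genes went both ways. Clec4g, of sinusoidal endothelium, rose from 36.2, 23.8 and 43.3 to 77.6, 137 and 95.1 while Klri1, an NK-cell receptor gene, fell from 156, 162 and 120.0 to 97.3, 41.0 and 76.1; 54.8% of the Klri1 transcript has a near copy in Klri2. Clec4d and Clec9a, chosen after their values were seen, rose by 1.30 and 1.01 on the log2 scale.

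Of the receptors that were lower, Tbxa2r, for thromboxane A2, had the steepest fall of the class, from 67.9, 81.3 and 78.9 to 17.4, 21.2 and 8.32 (4.90-fold). Cd40, the receptor of the costimulatory ligand CD154, fell from 94.4, 97.7 and 82.4 to 25.5, 50.9 and 20.2. Sema7a, a membrane-anchored semaphorin gene, fell from 359.9, 321 and 376 to 159.9, 129 and 147, and Ephb1, an ephrin receptor gene chosen after its values were seen, from 1063, 925 and 900.3 to 441, 397 and 500.4. No treated library of these 4 genes reached the lowest vehicle library. The paired leukocyte receptor genes Lilr4b and Lilrb4a rose by 3.02 and 4.18, the latter from 3 libraries with at most 1.76 normalised counts and by 5.06 without vehicle replicate 1. Their transcripts are near copies of each other over 84.6% and 100% of their length, so the reads of the 2 genes cannot be assigned with certainty. The macrophage marker gene Cd68, encoding a lysosomal glycoprotein, stood at 8.82, 18.1 and 9.77 against 71.8, 36.7 and 55.9.

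Channels and transporters comprised 17 tested genes, 7 higher and 10 lower. Aqp8 (ENSMUSG00000030762, chromosome 7, 123462291 to 123468004), encoding a channel for water and hydrogen peroxide, had the largest rise of the class, from 322, 299 and 369 to 1286, 1585 and 1176 (log2 change 2.03, SE 0.16, adjusted p = 5.66e-06 by edgeR). Its level went from 7.45 ± 0.828 to 30.3 ± 4.75 FPKM, which placed it among the 13 genes between 10 and 100 FPKM. Slc40a1, encoding ferroportin, the cell's iron exporter, had vehicle values within a narrow range, at 1812, 1859 and 1831, and held 3426, 3910.1 and 3792 with MGH-CP1. Slc7a11, encoding the cystine importer, and Slc7a2, encoding a cationic amino acid importer (chosen after its values were seen), rose from 283, 333 and 403 to 786, 1233 and 683 and from 195, 223 and 202 to 461, 452 and 509.9. Slco5a1, of the organic anion transporter family, rose from 56.5, 58.3 and 63.5 to 197, 164 and 174.

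Several ion channel genes were lower. Kcnn3, a calcium-activated potassium channel gene, fell from 75.0, 126 and 120.0 to 26.6, 18.4 and 30.9, and the chloride channel family gene Clic5 from 263, 244 and 248 to 119, 117 and 93.9. Cacng1, an auxiliary calcium channel subunit gene, fell from 102, 87.0 and 52.3 to 40.5, 19.8 and 36.8. The spread of these 3 genes differed, with Clic5 tight and Cacng1 wide. A pair of genes of the ATP-gated P2X channels, chosen after their values were seen, went opposite ways: P2rx1 fell from 33.5, 32.8 and 50.3 to 0, 8.48 and 2.38 and P2rx2 rose from 44.1, 59.9 and 62.8 to 129, 96.1 and 132. The fall of P2rx1 was the steepest of all tested coding genes (log2 change −3.49), and it was −4.93 without MGH-CP1 replicate 2 and −2.88 without MGH-CP1 replicate 1. Trpm5, a cation channel gene also chosen after its values were seen, lost its call without MGH-CP1 replicate 1 or 3 or without vehicle replicate 3 (adjusted p = 0.0610, 0.0592 and 0.0502 by edgeR), and its log2 change of −1.42 was −2.23 without MGH-CP1 replicate 2.

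Metabolic enzymes comprised 23 tested genes, 12 higher and 11 lower. On the higher side stood the enzymes of 1-carbon and polyamine metabolism, of which 5 of 29 listed genes were in the table: Odc1, Mthfd2, Aldh1l2, Amt and Cth. All 5 were tested and rose, with a median log2 change of 1.204. Beside this, 49.3% of all tested rows rose, with a median of 1.48 among them. Odc1 (ENSMUSG00000011179, chromosome 12, 17544794 to 17551505), the rate-limiting enzyme gene of polyamine synthesis, went from 9762, 9088 and 10362 to 21932, 20525 and 20639, and its level from 102 ± 6.88 to 219 ± 8.09 FPKM. Near copies, among them the processed copies Gm9260 and Gm7993, cover 62.8% of its transcript, so part of these reads may belong to them. Mthfd2, of mitochondrial folate metabolism, went from 438, 521 and 657 to 1061, 1403 and 1266. Aldh1l2, which oxidises formyl-folate in mitochondria, went from 73.2, 97.7 and 103 to 242, 244 and 201. Both had every treated library above every vehicle library. Amt, of the glycine cleavage system, and Cth, which makes cysteine from cystathionine, were low, with at most 26.3 and 15.6 normalised counts in vehicle.

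The list of ATF4, CHOP and amino acid stress genes overlapped with these, and 6 of 39 were in the table. Of these, 5 rose (Gdf15, Slc7a11, Aldh1l2, Mthfd2 and Cth) while Ddit4 fell, with a median log2 change of 1.26. Beside this, 49.3% of all tested rows rose. Ddit4, an inhibitor gene of the growth kinase complex mTORC1, went from 959.7, 949 and 932 to 436, 482 and 334. It was thus lower in all 3 treated libraries while the other members of the list were higher. None of the 29 genes on the list of unfolded protein and heat shock genes was in the table. A composite motif bound by ATF4 with C/EBP proteins, TGATGNAA on either strand, occurs in 3.60% of 21262 promoters of mouse coding genes (250 bases before to 50 after the start) and in 6 of 177 promoter windows of the members (3.39%), though with promoters for only 151 of 211 members the comparison of these shares is void; the lower genes Matn4 and Slco2a1 hold a match as well. Of the 6 list members in the table, Slc7a11 alone has a match among the promoters at hand. Chchd10, a mitochondrial gene, is not on the list and was chosen after its values were seen. It rose from 10.6, 13.1 and 15.4 to 53.3, 42.4 and 64.2. Slc7a11 and Chchd10 hold 2 matches each upstream of the start. Both windows are shown for that reason, with the matches in capitals (RefSeq, GRCm38.p6).
Slc7a11 upstream window, chr3:50443633-50443699, minus strand: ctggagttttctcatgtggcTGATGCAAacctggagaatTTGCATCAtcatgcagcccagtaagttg
Chchd10 upstream window, chr10:75933025-75933085, plus strand: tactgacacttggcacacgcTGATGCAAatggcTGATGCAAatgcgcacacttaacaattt
The match nearest the start is 39 bases before it in Slc7a11, where the 2 matches lie on opposite strands, and 64 bases before it in Chchd10, where both are on the coding strand. A match describes letters and does not show that a factor binds there.

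**Figure D3:**
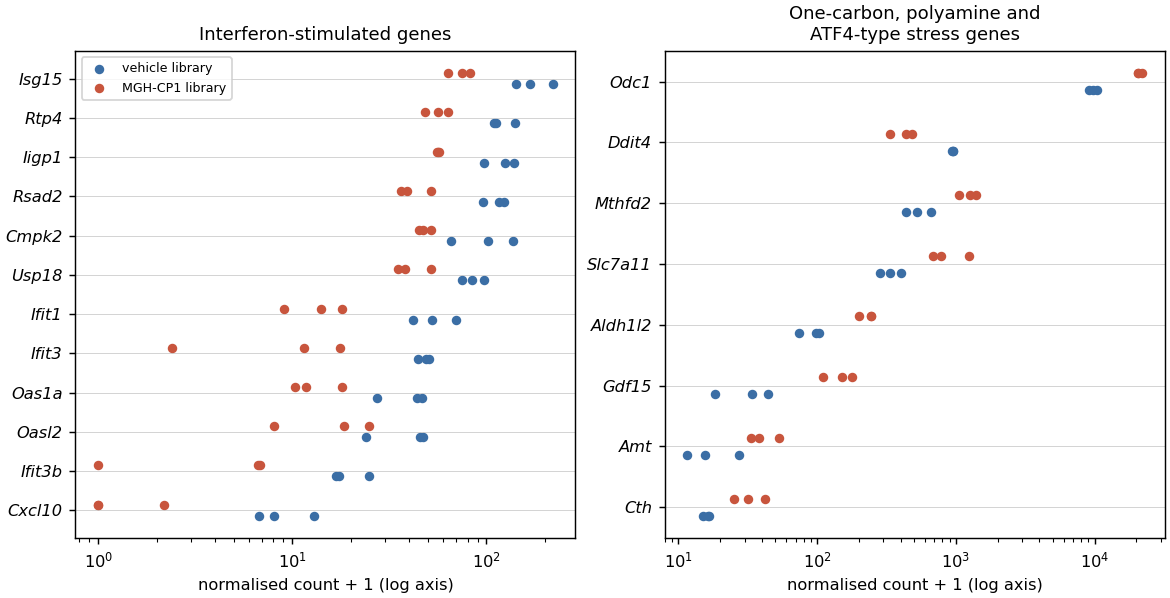
Normalised counts plus 1 (log axis) in each library for the listed interferon-stimulated genes (left) and the listed 1-carbon, polyamine and ATF4-type stress genes (right), each point being 1 library. On the left Oasl2 is the 1 gene whose groups overlap, and on the right Ddit4 is the 1 gene with the treated libraries on the lower side.

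Ndufa1 and Atp5k had the highest mean FPKM among the lower genes of metabolism. Ndufa1, a complex I subunit gene, went from 718, 687 and 604 to 363, 360.2 and 249.6, and Atp5k, an ATP synthase subunit gene, from 625, 537 and 533 to 246, 210.5 and 138. Tomm7, classed under trafficking and encoding a subunit of the mitochondrial outer membrane import channel, went from 932, 952 and 895 to 396, 376 and 296. In all 3 genes MGH-CP1 replicate 3 had the lowest value. Of 82 genes of the respiratory chain and mitochondrial ribosome, Ndufa1 and Atp5k were the 2 in the table, and 31.3% of the Atp5k transcript has a near copy. Phospho1, a phosphatase gene known from bone mineralisation, fell from 131, 145 and 182 to 37.1, 31.1 and 38.0, but 89.6% of its exons overlap exons of Abi3 on the other strand and Zfp652 on the same strand, and the libraries carry no strand mark. Galnt18, of the enzymes that start mucin-type O-glycans, was an abundant member at 25.1 ± 1.10 FPKM in vehicle and 11.05 ± 0.662 with MGH-CP1 (chosen after its values were seen). Gstp2, a glutathione transferase gene, held 61.7, 59.1 and 5.58 in vehicle and 13.9, 5.65 and 8.32 with MGH-CP1. Its groups overlapped, with vehicle replicate 3 low, near copies cover 88.7% of its transcript, and the call was lost on leaving out vehicle replicate 2, MGH-CP1 replicate 2 or MGH-CP1 replicate 3 (adjusted p = 0.0541, 0.0620 and 0.0592 by edgeR).

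Signalling genes were evenly split, with 8 of 16 tested genes higher and 8 lower. Bik, a pro-apoptotic gene of the BH3-only group, fell from 413, 491 and 412 to 147, 182 and 233; it was the 1 member in the table among 32 apoptosis genes. Pde1b, encoding a calmodulin-dependent phosphodiesterase, fell from 189, 173 and 177 to 55.6, 48.0 and 64.2. Mapkapk5, encoding a kinase downstream of p38-type MAP kinases, fell from 168, 112 and 158 to 41.7, 39.6 and 36.8, with 56.5% of its exons shared with Adam1a and Gm42878. The treated values of these 3 genes all lay below the vehicle values. Prkaa2, encoding the alpha-2 catalytic subunit of the energy sensor AMPK and chosen after its values were seen, rose from 9.70, 9.85 and 18.8 to 47.5, 43.8 and 19.0, with MGH-CP1 replicate 3 just above the highest vehicle library. Gadd45b, an early stress response gene, rose from 27.3, 25.5 and 20.2 to 55.6, 39.6 and 51.1.

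Transcription and chromatin genes comprised 18 tested genes, of which 6 encode replication-dependent histones. Without the histones, 5 of 12 were higher and 7 lower. Foxj1, known from ciliated cells, fell from 88.2, 95.2 and 76.1 to 22.0, 49.4 and 33.3. Zbtb20, a zinc finger repressor gene and the most abundant riser of the group in counts, went from 1741, 1881 and 1771 to 3610.1, 4126 and 3603. For both genes no treated library lay within the vehicle range. Chosen after their values were seen, Esr1, the estrogen receptor alpha gene, rose from 74.1, 64.9 and 64.9 to 147, 145 and 129.6, and Ppargc1a, a coactivator gene of mitochondrial biogenesis, from 14.1, 23.8 and 16.8 to 41.7, 62.2 and 53.5. Tcf15, an endothelial basic helix-loop-helix factor gene chosen in the same way, fell from 41.5, 48.4 and 37.0 to 27.8, 21.2 and 13.1.

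Genes of replication-dependent histones, transcripts of which usually end in a stem-loop in place of a poly(A) tail, had 12 of 65 list members in the table; 6 were tested and all 6 rose, with a median log2 change of 2.13; beside this, 49.3% of all tested rows rose, with a median of 1.48 among them. Hist1h1e, encoding a linker histone, went from 13.2, 8.21 and 6.98 to 84.6, 87.6 and 29.7. Hist1h1d, encoding another, went from 9.70, 6.57 and 24.4 to 44.0, 66.4 and 61.8 (log2 change 2.03, or 2.80 without vehicle replicate 3). Low counts made single libraries matter: the change of the H3 gene Hist1h3e was 2.23, or 3.43 without vehicle replicate 1, and that of Hist1h3i 4.09, or 4.92 without vehicle replicate 2. Hist1h2af had 0 counts in vehicle and 14 with MGH-CP1, which makes it at least 7.32-fold higher against a floor of 3 counts over the group (counting error only). Most of these histone genes have near-identical copies. Summed over the 12 rows the histone counts were 53.8, 32.0 and 46.1 in vehicle and 248, 333 and 213 with MGH-CP1.

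Lars2 (ENSMUSG00000035202, chromosome 9, 123366927 to 123462666), encoding the mitochondrial leucyl-tRNA synthetase, had the largest rise in the class of RNA and translation genes. It held 6497, 3323 and 2654 in vehicle and 18426, 28262 and 10624 with MGH-CP1, and its level went from 13.4 ± 6.57 to 61.2 ± 28.3 FPKM (log2 change 2.20, SE 0.41, adjusted p = 5.82e-04 by edgeR). Its libraries ranked in the same order as those of the non-coding rRNA row CT010467.1, which took 0.125%, 0.0554% and 0.0402% of all counts in vehicle and 0.614%, 0.803% and 0.342% with MGH-CP1. The highest value was in MGH-CP1 replicate 2 for Lars2, this row and the histone sum alike, and the lowest treated value in replicate 3. Other non-coding rows were also higher. Rn7sk, a small nuclear RNA without a poly(A) tail, held 25.6, 4.11 and 9.07 in vehicle and 73.0, 114 and 67.8 with MGH-CP1, which is the library order of the histone sum in both groups, whereas the vehicle order of CT010467.1 differs from that of the sum. The mitochondrial rRNA mt-Rnr1 held 2624, 2239 and 2143 and then 5495, 7793 and 4121, in the library order of Lars2. Malat1, a nuclear non-coding RNA, held 1857, 3333 and 2791 and then 11346, 13872 and 14069, with replicate 3 the highest treated library. The part of rRNA or other non-coding RNA carry-over in the Lars2 and histone results was not tested. The longest Lars2 transcript, of 3894 bases, had no near copy among annotated transcripts at 95% identity over 100 bases. Reads of Lars2 were counted over 11089 bases of exons, and the rest was not searched, so this search cannot decide the question. The other genes of the class were split. Pabpn1, encoding the nuclear poly(A)-binding protein, fell from 579.5, 642 and 611 to 246, 216 and 210.4, with tight values in both groups. Exons of Gm20521 on the same strand overlap 21.45% of its exons. Rps27a, which encodes ubiquitin fused to a ribosomal protein, fell from 5421, 8797 and 4068 to 2708, 2791 and 2265, with 49.1% of its transcript in near copies; it and Rpl24 were the 2 of 91 cytosolic ribosomal protein genes in the table.

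**Figure D4:**
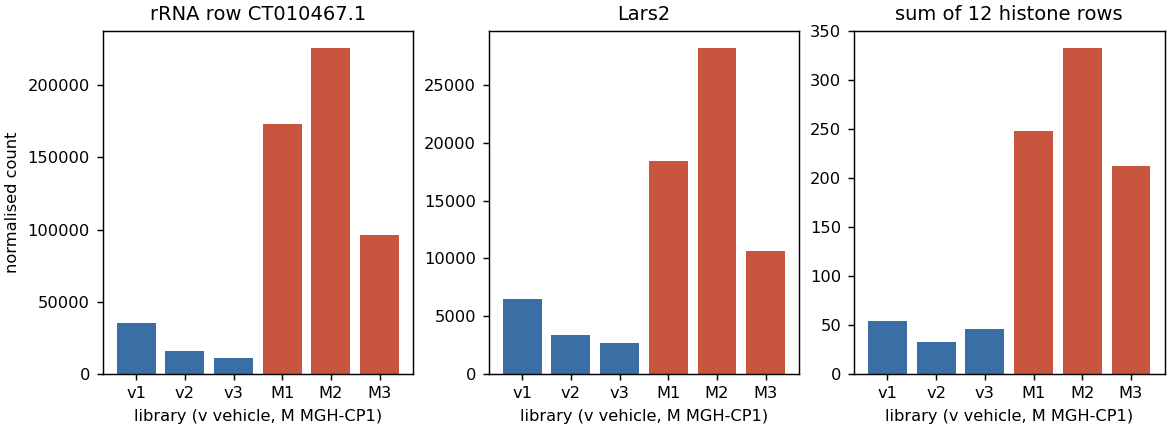
Normalised counts in each vehicle (v1 to v3) and MGH-CP1 (M1 to M3) library for the rRNA row CT010467.1, for Lars2 and for the sum of 12 histone rows, each bar being 1 library and each panel having its own axis from 0. All 3 measures were highest in M2, and M3 was the lowest treated library in each.

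The class of immune defence had 13 of 14 tested genes lower, beside 50.7% of all tested rows. The exception was Nlrc5, an activator gene of MHC class I transcription chosen after its values were seen, which rose from 30.0, 21.3 and 20.9 to 49.8, 60.7 and 68.9. Interferon-stimulated genes made up most of the class. The list of such genes, which does not hold Nlrc5, was chosen with earlier results of these data known. Of its 62 genes 12 were in the table, and of the 11 tested 11 were lower and 0 higher, with a median log2 change of −1.28. These genes are switched on by the factor ISGF3 and by interferon regulatory factors, which bind elements with repeated GAAA letters, and most of their products act against viruses. The most abundant was Isg15, encoding a ubiquitin-like modifier, at 8.28 ± 1.87 FPKM in vehicle and 3.40 ± 0.433 with MGH-CP1; a near copy in AC151275.1 covers 63.8% of its transcript. Rtp4 and Iigp1, encoding a chaperone of receptors and an immunity-related GTPase, went from 111, 139 and 108 to 62.6, 55.1 and 47.5 and from 96.1, 123 and 138 to 54.5, 55.1 and 55.9. Iigp1 had the tightest treated values of the list. Rsad2, encoding the antiviral enzyme viperin, fell from 95.3, 122 and 114 to 51.0, 35.3 and 38.0.

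Among the tested genes of the list the steepest falls were in the Ifit genes, which encode proteins that bind foreign RNA and were chosen after their values were seen. Ifit1 went from 51.2, 41.1 and 69.1 to 8.11, 16.95 and 13.1 and Ifit3 from 43.2, 47.6 and 49.6 to 10.4, 1.41 and 16.6. For Ifit3 the log2 change of −2.24 was −2.88 without MGH-CP1 replicate 3, and for its near copy Ifit3b −2.29 was −1.70 without the same library. Oasl2 overlapped between groups and lost its call without MGH-CP1 replicate 2 (adjusted p = 0.0530 by edgeR). Cxcl10, encoding an interferon-induced chemokine, had too few counts for the test, at 7.06, 5.75 and 11.9 and 0, 0 and 1.19, and Gm4951, an interferon-inducible GTPase gene with 24 counts in vehicle, had 0 with MGH-CP1 and was at least 5.10-fold lower by the floor of 3 counts over the group. The lysozyme gene Lyz2 went from 205, 171 and 186 to 66.0, 117 and 95.1, with 96.0% of its transcript in a near copy, Lyz1.

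Promoter sequence was at hand for 9 of these 12 genes, and 7 of the 9 held the element core (GAAA, any 2 bases, GAAA, on either strand), which 3.35% of the 21262 coding promoters hold. Since 9 of 12 is under 80% of the list, the share is no more than a count. Over all members the core was in 6 of 94 promoter windows of higher genes, among them Vegfa and Spp1, and in 10 of 83 of lower genes. With promoters for only 151 of 211 members these shares are not compared. Windows of some of the 7 genes are shown for the repeated letters, with capitals marking the matches (RefSeq, GRCm38.p6).
Ifit1 upstream window, chr19:34640765-34640833, plus strand: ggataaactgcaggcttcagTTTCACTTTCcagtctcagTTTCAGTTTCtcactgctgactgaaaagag
Ifit3 upstream window, chr19:34583353-34583436, plus strand: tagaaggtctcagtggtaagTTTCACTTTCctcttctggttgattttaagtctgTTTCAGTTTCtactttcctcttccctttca
Isg15 upstream window, chr4:156200855-156200916, minus strand: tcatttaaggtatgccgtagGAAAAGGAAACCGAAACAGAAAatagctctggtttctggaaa
Rsad2 upstream window, chr12:26456543-26456592, minus strand: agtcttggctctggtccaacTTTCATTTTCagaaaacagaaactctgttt
Oas1a upstream window, chr5:120907526-120907565, minus strand: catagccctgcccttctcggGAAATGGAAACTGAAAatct
Ifit3b, at chr19:34607749-34607832, plus strand, has the same letters as Ifit3 over its window, and 97.4% of the Ifit3 transcript has a near copy there. Isg15 has 3 overlapping matches, the nearest 56 bases before the start, and the nearest of Ifit1 lies 75 bases before it. A match shows letters only and says nothing about binding in these cells.

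Cytoskeleton and trafficking genes comprised 11 tested genes, 5 higher and 6 lower. S100a13, encoding a small calcium-binding protein, was the most abundant of the class, at 72.9 ± 5.54 FPKM in vehicle and 32.5 ± 2.54 with MGH-CP1. Arc, the activity-regulated cytoskeletal gene, fell from 387, 359 and 375 to 115, 117 and 134 (log2 change −1.61, SE 0.14, adjusted p = 7.84e-06 by edgeR). Nav2 and Kif21a, genes of a microtubule-binding protein and a kinesin chosen after their values were seen, rose by 1.10 and 1.09 on the log2 scale. Nutf2-ps1 fell from 104, 294 and 135 to 53.3, 41.0 and 27.3, with vehicle replicate 2 far above the others and 96.3% of its transcript in near copies.

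**Figure D5:**
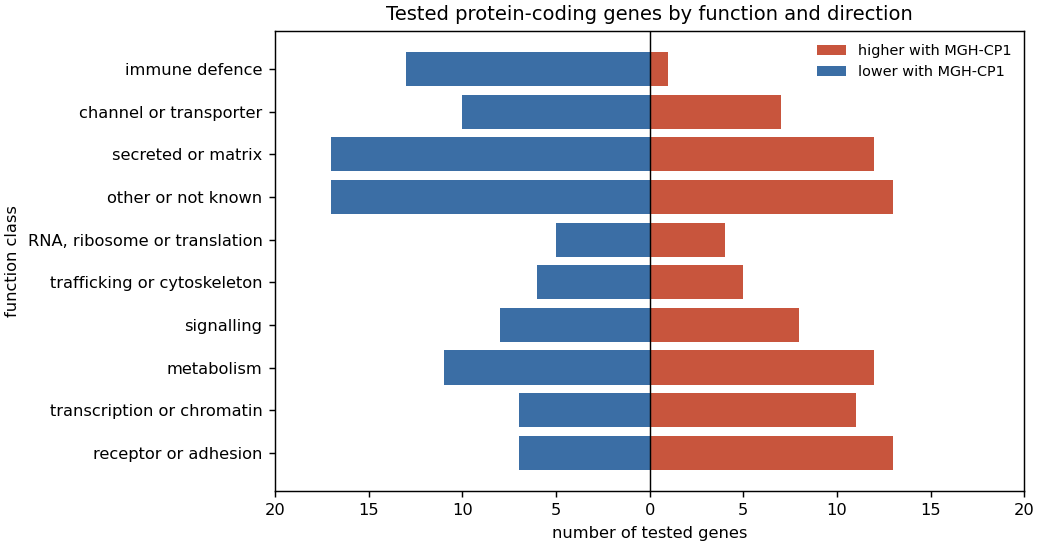
Number of tested coding genes higher (right) and lower (left) with MGH-CP1 in each function class. Immune defence, with 13 lower and 1 higher, is the class furthest to one side; receptors and adhesion molecules had 13 higher and 7 lower.

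The list of 37 YAP, TAZ and TEAD target genes had 2 members in the table, both tested and lower, beside 50.7% of all tested rows. Anxa3, encoding an annexin, held 285, 275 and 247 in vehicle and 116, 123 and 120.0 with MGH-CP1, and Ccdc80 held 117, 122 and 125 and 41.7, 55.1 and 40.4. In both genes every treated library lay below every vehicle library. No gene on the lists of 19 Hippo pathway genes, 39 Notch and Wnt genes and 46 cell cycle genes was in the table as a coding row. These lists are not complete. The Wnt gene Wnt2b, the Hes family gene Hes7 and the cyclin gene Ccno, chosen after their values were seen, were coding rows that the lists leave out. The TEAD motif GGAATG, searched on both strands, was found in 21 of 177 promoter windows of the members (11.9%) beside 13.6% of all coding promoters. A promoter was at hand for 151 of the 211 members, under 80%, so that this comparison is void, because the promoter table is not complete.

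Of 63 endothelial and angiogenic genes 5 were in the table and tested, with Vegfa higher and Vwf, Col15a1, Tbxa2r and Angpt1 lower. Of 99 matrix genes 6 were tested, with Spp1, Col13a1 and Ltbp2 higher and Ccdc80, Col15a1 and Matn4 lower. The TGF-beta and BMP list gave 3 of 32, all higher (Fst, Gdf15 and Ltbp2), beside 49.3% of all tested rows. With so few genes nothing is read from this. The neuronal-type list gave 5 of 55, with Nptx1, Neo1 and Sema3b higher and Ntn1 and Sema7a lower, and the myeloid-type list 5 of 49, with Cd68, Lilr4b and Lilrb4a higher and Nckap1l and Lyz2 lower.

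In the remaining class, of other or poorly known genes, 13 of 30 tested genes were higher and 17 lower. Tmem245, encoding a membrane protein, went from 1787, 2036 and 1872 to 3880.1, 3876 and 3642. Tc2n, encoding a protein with C2 domains, went from 274, 228 and 235 to 602, 339 and 593, with MGH-CP1 replicate 2 well below the other treated libraries. Nnat, an imprinted gene, fell from 109, 106 and 97.0 to 45.2, 55.1 and 48.7. Sncaip, encoding a synuclein-binding protein, and the F-box gene Fbxl22 fell by 1.58 and 1.78 on the log2 scale. Gm10282, an abundant row with a predicted gene name that was chosen after its values were seen, fell from 2188, 2208 and 2333 to 1116, 1159.8 and 592; it is a near copy of Hmgn2, so its reads may come from that gene.

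For 24 of the 211 genes, 16 higher and 8 lower, the counts were too few for the test. Among them Eln, the elastin gene, held 8.82, 22.2 and 26.5 in vehicle and 5.79, 5.65 and 0 with MGH-CP1. Zg16, encoding a secreted lectin, held 0.882, 4.93 and 2.79 in vehicle and 6.95, 25.4 and 7.13 with MGH-CP1, and Ryr1, a calcium release channel gene, 0.882, 0.821 and 0.698 and 9.27, 8.48 and 3.57.

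Bcl11b, a zinc finger gene known from T cells, was also listed in the table of dinaciclib against the same 3 vehicle libraries, which was normalised separately. It stood at 0.0808 ± 0.0262 FPKM with MGH-CP1, had 0 counts in the 3 dinaciclib libraries, and held 0.215 ± 0.0143 FPKM in vehicle. The dinaciclib libraries were shallower, at 2541162 to 3316779 counts, and both comparisons share the vehicle libraries.

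The median exon length of the members was 3405 bases, beside 3527 for 21755 coding genes of the annotation (GENCODE M21); this was not tested. Genes made of a single exon block were 11.8% of the members and 6.58% of all coding genes; among the higher genes without histones they were 3.33%. Near copies or overlapping exons covered more than 20% of 48 members, 40 of them tested, and without these 147 genes were called, 72 higher and 75 lower (an alternative chosen after seeing the data).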

How the data were processed

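Poly(A)-selected RNA of EHE17 cells was sequenced, and the libraries carry no strand mark (second strand made with dTTP, per the labels' protocols). The authors used tools that the submitters' processing notes name as DESeq2 1.20.0, featureCounts 1.5.0-p3, HISAT2 2.0.5 and fastp, with no order given; the build of the genome is not given in the sources used here. Per the file headers, the authors deposited raw read counts, FPKM and normalised values, a signal that equals each count over its library's size factor (recovered from 100% of values). The deposited log2 fold changes and p-values were not used for the results. The coordinates match GENCODE M21 (GRCm38) for 206 of 211 members.

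Counts were fitted with edgeR 4.0.16 (R 4.3.3), quasi-likelihood test, two-sided, all rows of the table, the authors' size factors, filterByExpr with a minimum count of 10, and Benjamini-Hochberg adjustment over 355 rows at 0.05. The fit was tested on simulated data. The dispersion comes from genes picked for change on these libraries, so a call is no independent evidence. Permutation tests used scipy 1.17.1, near copies BLAST 2.17.0 (95% identity over at least 100 bases), figures matplotlib 3.10.9. Members, lists and classes were chosen with earlier results of these data known. Named genes are the 12 largest rises and 12 largest falls among called coding genes with regular symbols, separate groups and a mean normalised count of at least 46.8 (the median), the top 3 of each class by FPKM, up to 4 of each list, and untested genes; some genes that this rule picks are left unreported. Replicates differed by more than sampling noise in every pair (chi-square 14.9 to 270 times its degrees of freedom). Alternatives were other library scales, filters, thresholds and gene sets, DESeq2 1.42.0, a replicate block, and leaving out each library.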

Additional observations from a re-analysis of the deposited data

How the results depend on the processing

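The 187 calls, 86 higher and 101 lower, came out in the same numbers with TMM factors (which moved the median log2 change by 0.13 on the same genes), with total counts as library size, with DESeq2 and with coding rows fitted alone. Without a count filter 211 genes were called, with a minimum of 20 counts 162, and 183 passed an adjusted p of 0.01. Requiring an absolute log2 change of at least 1.5 left 71 genes, 31 higher and 40 lower. Leaving out 1 library at a time gave 185 to 187 calls, 86 to 86 higher and 99 to 101 lower. Of 946 values of the 73 named and tested genes under the alternatives, 943 kept their direction and call, 3 (all of Gstp2) lost the call and 0 reversed; 14 coding genes moved by more than 1.5 times without 1 library. The labels do not say that a replicate number marks a shared culture, and deviations of same-numbered libraries correlated at 0.0344, −0.106 and 0.0279 over 355 genes, so the numbers were not taken as pairs; a replicate block gave 187 calls. In the 150 bases nearest the start, the interferon element core was in 3 of 9 list promoters and in 1.36% of all. A share on the FPKM scale could not be given because the table holds only picked rows; the summed FPKM of the members was 1140 ± 68.9 in vehicle and 1066 ± 80.2 with MGH-CP1 (exact permutation p = 0.3). Some genes with few counts had wide errors, such as Lilrb4a, with a mean of 8.62 normalised counts and an SE of 0.62. A low FPKM is not the same as few counts. Nav2, at a mean of 0.480 FPKM, averaged 435 normalised counts and had an SE of 0.18. Lars2, at a mean of 37.3 FPKM, had an SE of 0.41.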
